A study of Mus musculus with 4 samples.

Results

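The annexin family was examined as 8 genes, *Anxa1*, *Anxa2*, *Anxa3*, *Anxa4*, *Anxa5*, *Anxa6*, *Anxa7* and *Anxa11*, which were taken by symbol from the 25655 genes of the RNA-Seq files. They are 8 of 12 genes whose symbol is Anxa and a number, given as a list of names, and the 4 that were not on the list had low counts or none. The libraries came from hearts of mice on day 3 after myocardial infarction and reperfusion (MI/R), in which the left anterior descending artery was tied for 60 minutes and then reopened. CD45.2+CD11b+Ly6G+ neutrophils were sorted by SiglecF, a sialic acid-binding lectin, into SiglecF hi and SiglecF lo cells, which the labels call SiglecF+ and SiglecF-. The 4 groups were WT SiglecF hi, *Cd300a-/-* SiglecF hi, WT SiglecF lo and *Cd300a-/-* SiglecF lo neutrophils. All mice were male, of a C57BL/6 background and 8 to 12 weeks old, and the *Cd300a-/-* mice lacked the inhibitory phosphatidylserine receptor CD300a. Each group was 1 library made from the pooled hearts of 8 mice, so no difference below has a replicate check and the values describe these 4 libraries.

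Annexins are proteins that bind phospholipid membranes when calcium rises, through a conserved core of repeats, and that differ in the stretch before that core. They act in vesicle traffic, in repair of the torn plasma membrane and at the cell surface, where several bind phosphatidylserine, and many pair with small S100 or other EF-hand proteins. In neutrophils annexin A1 is known as an abundant cytosolic protein that, once released, acts on formyl peptide receptors and limits recruitment during the resolution of inflammation.

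Depth was taken as the total of the counts over all genes. Among SiglecF lo neutrophils it was 9631901 for WT and 10988619 for *Cd300a-/-* mice, and among SiglecF hi neutrophils 19278243 for WT and 17632989 for *Cd300a-/-* mice. Where 4 values are listed together below, they stand in this order of libraries. Levels are given as TPM, which is per length and can be compared between genes. A ratio is the log2((TPM + 1) ratio) of 2 libraries, and a gene was counted as higher or lower past 0.5. Intervals are 95% counting intervals from the counts, and they cover counting error only and not the spread between mice. PCR copies of a molecule were not marked and count as separate reads, so the intervals may be too narrow even for counting error. A limit of 10 on the mean TPM of the 4 libraries kept 6523 genes, and all 8 annexins passed it. The 4 comparisons share libraries in pairs, so that a value of 1 library enters a genotype comparison and a subset comparison.

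*Cd300a*, the deleted gene, stood at 3024 counts (127 TPM) among SiglecF lo and 6640 counts (162.9 TPM) among SiglecF hi neutrophils of WT mice. Only 28 counts (1.06 TPM) and 27 counts (0.74 TPM) were found for SiglecF lo and SiglecF hi neutrophils of *Cd300a-/-* mice, as the genotype labels say. *Siglecf* separated the subsets, at 11.3 and 15.3 TPM in SiglecF lo and at 354 and 405 TPM in SiglecF hi neutrophils of WT and *Cd300a-/-* mice. *Ly6g* went the other way, at 330.4 and 889 TPM in SiglecF lo but only 11.1 and 41.9 TPM in SiglecF hi neutrophils, although both were sorted on Ly6G. Levels of *Itgam* ran from 337 to 550.4 TPM, and those of *Ptprc* from 608 to 710.0 TPM. The 8 neutrophil markers summed to 154708, 203225, 27768 and 32759.7 TPM, with *S100a9* as the most abundant in each. Genes of other cells were present as well. The 8 macrophage markers, none at 0, summed to 2813, 2648, 6965 and 6279.9 TPM and were led by *C1qb*, except in *Cd300a-/-* SiglecF lo, where *C1qa* led. The 6 fibroblast markers, led by *Dcn*, summed to 869, 812, 1854 and 1299.8 TPM. The 6 endothelial markers, led by *Pecam1*, summed to 157, 55.1, 75.0 and 93.9 TPM, and the 6 cardiomyocyte markers, led by *Myl2* in both SiglecF lo libraries and by *Tnnt2* in both SiglecF hi libraries, to 43.6, 25.3, 41.6 and 62.9 TPM. Of the eosinophil markers, *Epx* was at 0 in every library and *Prg2* in 3 libraries. *Ear2*, the most abundant and the only one that passed the limit, was at 171, 85.9, 109.8 and 113 TPM. On the TPM scale *Ear2* was thus lower in SiglecF hi than in SiglecF lo neutrophils of WT mice and higher in those of *Cd300a-/-* mice. *Ccr3* was at 1.49, 1.78, 4.91 and 5.49 TPM and so higher in both SiglecF hi libraries, *Ear1* was at 0 in all but WT SiglecF hi (0.937 TPM), and *Il5ra* stayed at or under 0.653 TPM. The 6 lymphocyte markers summed to 8.35 TPM or less, with *Trac* at 0 in every library. Annexins are also made by macrophages, fibroblasts and endothelial cells, and in such bulk samples fewer cells of a type and less RNA per cell cannot be told apart.

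Annexin mRNA as a whole was more abundant in SiglecF lo than in SiglecF hi neutrophils. The 8 levels summed to 3132 TPM in WT and 4017 TPM in *Cd300a-/-* mice for SiglecF lo neutrophils, and to 2327 TPM and 2226 TPM for SiglecF hi neutrophils. These sums are 0.313%, 0.402%, 0.233% and 0.223% of all TPM, and rest on 31126, 45358, 41055 and 35313 counts. *Anxa1* and *Anxa2* together made up 77.5% and 77.3% of annexin TPM in WT and *Cd300a-/-* SiglecF lo neutrophils, against 58.2% and 59.3% in SiglecF hi neutrophils. The family was thus spread more evenly over its members in the SiglecF hi libraries, where *Anxa5* alone held 19.6% in WT and 17.9% in *Cd300a-/-*.

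The order of annexin levels differed between the libraries, though *Anxa2* was the most abundant in each. In WT SiglecF lo neutrophils it was followed by *Anxa1*, *Anxa5*, *Anxa11*, *Anxa6*, *Anxa3*, *Anxa7* and *Anxa4*, and the counting intervals of all neighbours in this order were apart. In *Cd300a-/-* SiglecF lo neutrophils *Anxa11* stood above *Anxa5*, and the intervals of *Anxa3* and *Anxa7* overlapped. *Anxa5* moved above *Anxa1* in WT SiglecF hi neutrophils, where *Anxa4* rose from the last place to the sixth from the top and every pair of neighbours was apart. In *Cd300a-/-* SiglecF hi neutrophils *Anxa1* was again above *Anxa5*, and among the lowest members the intervals of *Anxa4* and *Anxa3*, and those of *Anxa3* and *Anxa7*, overlapped.

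**Figure D1:**
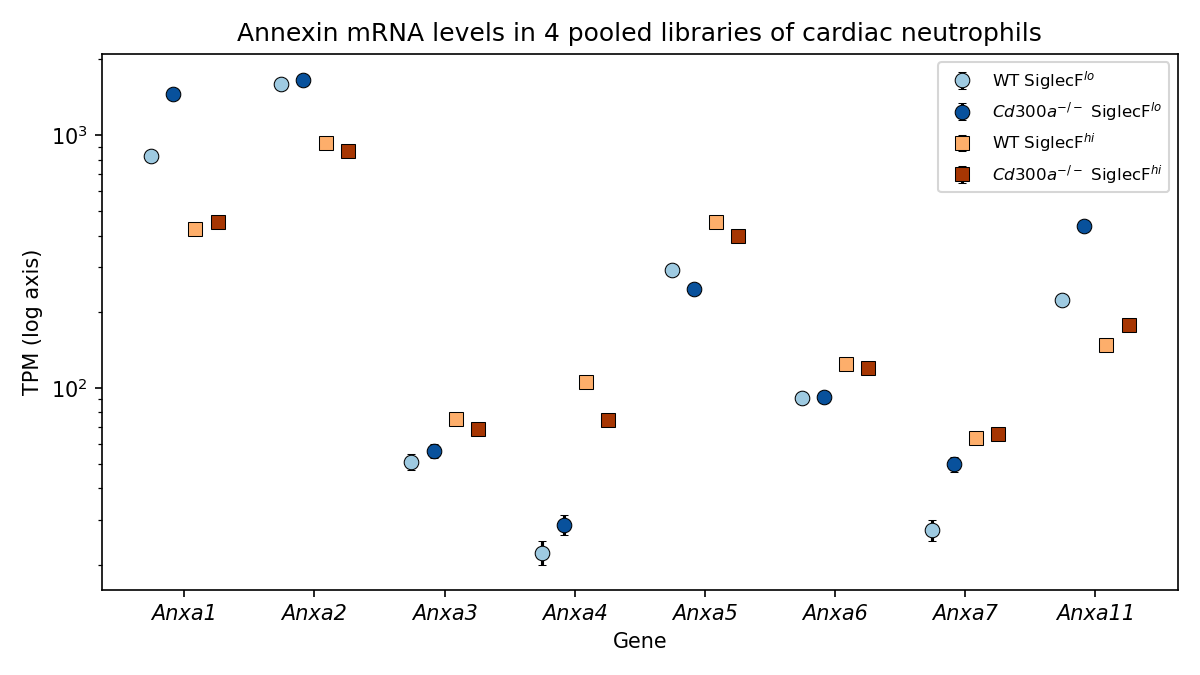
Level of each annexin mRNA in TPM (log axis) in the 4 libraries, 1 pooled library per group. Points are the deposited values and bars the exact 95% Poisson intervals, which are often smaller than the points. *Anxa1*, *Anxa2* and *Anxa11* lie higher in the SiglecF lo libraries (circles) and the other annexins higher in the SiglecF hi libraries (squares) on the TPM scale, which relative to the median of all genes does not hold for *Anxa6* in WT nor for *Anxa3*, *Anxa6* and *Anxa7* in *Cd300a-/-* mice.

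*Anxa1* (ENSMUSG00000024659, chr19:20350792-20368308, reverse strand, on GRCm39) encodes the ligand of formyl peptide receptors. It was at 826 TPM (8392 counts, interval 809 to 844 TPM) in WT SiglecF lo and at 1452 TPM (16274 counts, interval 1430.0 to 1475 TPM) in *Cd300a-/-* SiglecF lo neutrophils. In SiglecF hi neutrophils it was at 426 TPM (7398 counts) in WT and 452 TPM (7013 counts) in *Cd300a-/-*. The library of *Cd300a-/-* SiglecF lo neutrophils thus stood above the other 3, and *Anxa1* ranked 87th among all genes there, against 186th among WT SiglecF lo, 388th among WT SiglecF hi and 368th among *Cd300a-/-* SiglecF hi neutrophils. The ratio of *Cd300a-/-* to WT was 0.81 (interval 0.78 to 0.85) in SiglecF lo and 0.083 (interval 0.036 to 0.13) in SiglecF hi neutrophils. Between the subsets, the ratio of SiglecF hi to SiglecF lo was -0.95 (interval -0.997 to -0.91) in WT and -1.68 (interval -1.72 to -1.64) in *Cd300a-/-* mice.

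Of the receptors of annexin A1, *Fpr1* and *Fpr2* were lower in SiglecF hi neutrophils, as *Anxa1* itself was, on the TPM scale and relative to the median of all genes. *Fpr2*, the most abundant of the 3 formyl peptide receptor genes that were listed, was at 764 and 919 TPM in WT and *Cd300a-/-* SiglecF lo and at 432 and 464 TPM in SiglecF hi neutrophils. *Fpr1* had subset ratios of -1.73 in WT and -1.85 in *Cd300a-/-*. Of all genes 7.47% in WT and 7.97% in *Cd300a-/-* mice were lower on the TPM scale, and 20.9% and 23.6% relative to the median. These 2 genes, which passed the limit, both lay within 0.5 between the genotypes, with a median of 0.27 for SiglecF lo and 0.13 for SiglecF hi neutrophils, where 16.4% and 3.31% of all genes were higher and 19.9% and 3.46% lower. *Fpr3*, below the limit, had 12, 108, 39 and 29 counts in the 4 libraries. It was therefore not lower in WT SiglecF hi than in WT SiglecF lo neutrophils (1.84 to 3.50 TPM, ratio 0.66), and its highest count was in the library in which *Anxa1* was highest.

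*Anxa1* is also known as a gene that glucocorticoids induce. Of 7 genes of the glucocorticoid response, 6 passed the limit, and 1 of these, *Fkbp5*, was past 0.5 upwards between the genotypes among SiglecF lo neutrophils (21.3 to 32.8 TPM, ratio 0.60, interval 0.47 to 0.73), beside 16.4% of all genes. None was past 0.5 between the genotypes in SiglecF hi neutrophils, where only 3.31% of all genes were higher and 3.46% lower. The most abundant, *Dusp1*, lay between 1591 and 1796 TPM in all libraries, a far narrower range than that of *Anxa1*. Between the subsets their median was 0.055 in WT and 0.026 in *Cd300a-/-* mice, with 0 of 6 and 1 of 6 higher and none lower on the TPM scale, where 51.9% of all genes were higher and 7.47% lower in WT, and 56.6% and 7.97% in *Cd300a-/-* mice. That scale carries a shift of the median of all genes to 0.53 in WT and 0.61 in *Cd300a-/-* mice. Relative to that median, 0 of the 6 were higher and 3 lower in WT and 0 higher and 5 lower in *Cd300a-/-* mice, beside 20.9% and 23.6% of all genes lower, and *Anxa1* was lower in both. *Dusp1* was then among the lower genes in both, at -0.61 in WT and -0.52 in *Cd300a-/-* mice.

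*Anxa2* (ENSMUSG00000032231, chr9:69360902-69399077, forward strand) encodes the annexin that pairs with S100A10 and binds plasminogen and its activator at the cell surface. It was at 1599.9 TPM (14369 counts) in WT and 1654 TPM (16386 counts) in *Cd300a-/-* SiglecF lo neutrophils. In SiglecF hi neutrophils it was at 928 TPM (14240 counts) in WT and 869 TPM (11929 counts) in *Cd300a-/-*. *Anxa2* was therefore set apart by subset and hardly by genotype. Its genotype ratio was 0.048 (interval 0.015 to 0.080) in SiglecF lo and -0.096 (interval -0.13 to -0.060) in SiglecF hi neutrophils, and its subset ratio -0.78 (interval -0.82 to -0.75) in WT and -0.93 (interval -0.96 to -0.89) in *Cd300a-/-* mice.

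The partner of *Anxa2* did not follow it. *S100a10* was at 290.2 TPM in WT but 148 TPM in *Cd300a-/-* SiglecF lo neutrophils (ratio -0.96, interval -1.10 to -0.83), and at 355 and 286 TPM in SiglecF hi neutrophils. Per length, *Anxa2* mRNA exceeded *S100a10* mRNA 5.51-fold (interval 5.20 to 5.85) in WT and 11.1-fold (interval 10.3 to 12.03) in *Cd300a-/-* SiglecF lo neutrophils. The excess was 2.62-fold (interval 2.51 to 2.73) in WT and 3.04-fold (interval 2.89 to 3.19) in *Cd300a-/-* SiglecF hi neutrophils. Such a ratio of *Anxa2* to its partner within a library does not move with the scaling of that library.

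Of the 7 genes of plasminogen activation, on which annexin A2 acts, 4 passed the limit and *Plg* was at 0 counts in every library. *Plaur*, the receptor of urokinase and the most abundant, had subset ratios of -0.70 in WT and -0.77 in *Cd300a-/-*, close to those of *Anxa2*. *Plau*, which encodes urokinase, went against *Anxa2*, at 27.4, 57.3, 93.1 and 121 TPM in the 4 libraries. Between the genotypes, 1 of the 4 was higher (*Plau*, 1.04) and 1 lower (*Plgrkt*, -0.76) in SiglecF lo neutrophils and none was past 0.5 in SiglecF hi neutrophils. Between the subsets, 2 were higher and 2 lower in WT, and 3 higher and 1 lower in *Cd300a-/-* mice. Relative to the median of all genes these counts became 1 higher and 2 lower in WT, and 0 higher and 1 lower in *Cd300a-/-* mice. All genes had 51.9% higher and 7.47% lower in WT and 56.6% and 7.97% in *Cd300a-/-* mice on the TPM scale, 19.3% and 20.9% in WT and 21.2% and 23.6% in *Cd300a-/-* mice relative to the median, and between the genotypes 16.4% higher and 19.9% lower in SiglecF lo and 3.31% and 3.46% in SiglecF hi neutrophils.

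*Anxa5* (ENSMUSG00000027712, chr3:36503072-36530043, reverse strand) encodes the annexin used as a probe of phosphatidylserine on dying cells, the lipid that CD300a binds. It was at 292 TPM (2594 counts) in WT and 247 TPM (2426 counts) in *Cd300a-/-* SiglecF lo neutrophils, and at 456 TPM (6920 counts) in WT and 399.5 TPM (5432 counts) in *Cd300a-/-* SiglecF hi neutrophils. *Anxa5* was the annexin that was lower in *Cd300a-/-* in both subsets with counting intervals clear of 0, by a ratio of -0.24 (interval -0.32 to -0.16) in SiglecF lo and -0.19 (interval -0.24 to -0.14) in SiglecF hi neutrophils. Neither passed 0.5. Its subset ratios were 0.64 (interval 0.58 to 0.71) in WT and 0.69 (interval 0.62 to 0.76) in *Cd300a-/-* mice, and both fell under 0.5 relative to the median of all genes (0.12 and 0.077) and with TMM scaling (0.10 and 0.11).

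*Anxa4* (ENSMUSG00000029994, chr6:86713822-86770566, reverse strand) encodes an annexin that assembles on membranes as a lattice. On the scale of log2(TPM + 1) it had the widest range of the members, 2.20 beside 1.77 for *Anxa1*. Relative to the median of all genes its largest ratio was 1.68, between the subsets of WT mice. That of *Anxa1* was then larger in size, at -2.30 between the subsets of *Cd300a-/-* mice. *Anxa4* was at 22.2 TPM (330 counts, interval 19.9 to 24.7 TPM) in WT and 28.8 TPM (472 counts, interval 26.3 to 31.5 TPM) in *Cd300a-/-* SiglecF lo neutrophils. In SiglecF hi neutrophils it was at 106 TPM (2687 counts, interval 102 to 109.96 TPM) in WT and 74.7 TPM (1696 counts, interval 71.1 to 78.3 TPM) in *Cd300a-/-*. WT SiglecF hi neutrophils thus had the most *Anxa4* and both SiglecF lo libraries little. The subset ratio was 2.20 (interval 2.04 to 2.36) in WT and 1.34 (interval 1.20 to 1.49) in *Cd300a-/-* mice. Between the genotypes the ratio was 0.36 (interval 0.17 to 0.56) in SiglecF lo and -0.498 (interval -0.59 to -0.41) in SiglecF hi neutrophils, where it lay just inside the threshold.

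*Anxa6* (ENSMUSG00000018340, chr11:54869934-54924271, reverse strand), the largest annexin, acts at endosomes and at sites of membrane repair. It was at 91.3 TPM (1168 counts) in WT and 92.1 TPM (1299 counts) in *Cd300a-/-* SiglecF lo, and at 125 TPM (2723 counts) in WT and 119.7 TPM (2341 counts) in *Cd300a-/-* SiglecF hi neutrophils. A difference of *Anxa6* between the genotypes was not detectable at this depth, with ratios of 0.012 (interval -0.10 to 0.12) in SiglecF lo and -0.058 (interval -0.14 to 0.021) in SiglecF hi neutrophils. Its subset ratios, 0.44 (interval 0.35 to 0.54) in WT and 0.38 (interval 0.28 to 0.47) in *Cd300a-/-*, were under the threshold and fell below 0 relative to the median of all genes.

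Genes that act beside these membrane-binding annexins moved in several directions. Of 8 genes of phosphatidylserine exposure, 7 passed the limit. In *Cd300a-/-* against WT SiglecF lo neutrophils 3 of them were higher and none lower, namely the flippase genes *Atp11a* (15.0 to 45.1 TPM, ratio 1.53) and *Atp11b* (0.66) and *Plscr1* (0.64), while *Anxa5* was at -0.24 and 16.4% of all genes were higher and 19.9% lower. None was past 0.5 between the genotypes in SiglecF hi neutrophils, where few genes were (3.31% higher and 3.46% lower). *Tmem30a*, the flippase subunit and the most abundant of them by mean, was higher in SiglecF hi neutrophils on the TPM scale, as *Anxa5* was, with ratios of 0.91 in WT and 0.72 in *Cd300a-/-*. Relative to the median of all genes the ratios of *Tmem30a* were 0.38 and 0.11, under the threshold, and the gene past it upwards in WT was *Ano6* (0.54). In the subset comparisons 2 were higher and 0 lower in WT, and 4 higher and 3 lower in *Cd300a-/-* mice, but relative to the median of all genes 1 was higher and 3 lower in WT, and 0 higher and 3 lower in *Cd300a-/-* mice. Of all genes, 51.9% were higher and 7.47% lower in WT and 56.6% and 7.97% in *Cd300a-/-* mice on the TPM scale, and 19.3% and 20.9% in WT and 21.2% and 23.6% in *Cd300a-/-* mice relative to their median.

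Membrane repair, in which annexins A1, A2, A5 and A6 take part, was described by 9 genes, of which 7 passed the limit. *Chmp4b*, the most abundant, lay between 435 and 497 TPM in all libraries. Between the genotypes 1 was higher (*Ahnak*, 18.4 to 39.1 TPM, ratio 1.05) and 1 lower (*Capn2*, ratio -0.75) in SiglecF lo neutrophils, and none was past 0.5 in SiglecF hi neutrophils. Between the subsets 5 were higher and 1 lower in WT, and 3 higher and 1 lower in *Cd300a-/-* mice, against 2 higher and 1 lower in WT, and 1 higher and 2 lower in *Cd300a-/-* mice, relative to the median of all genes. Among the 9 other genes of calcium-dependent phospholipid binders, which carry C2 domains in place of an annexin core, 7 passed the limit. They had 1 higher gene in *Cd300a-/-* SiglecF lo (*Cpne2*, 41.6 to 111 TPM, ratio 1.40) and 1 lower gene in *Cd300a-/-* SiglecF hi neutrophils (*Esyt1*, the most abundant by mean, 121 to 82.8 TPM, ratio -0.55). Between the subsets 1 was higher and 1 lower in WT, and 1 higher and 2 lower in *Cd300a-/-* mice, whereas relative to the median of all genes 0 were higher and 4 lower in each genotype. On the TPM scale these shares of 7 genes stand beside 51.9% of all genes higher and 7.47% lower in WT and 56.6% and 7.97% in *Cd300a-/-* mice, and relative to the median beside 19.3% and 21.2% higher and 20.9% and 23.6% lower. Those between the genotypes stand beside 16.4% higher and 19.9% lower in SiglecF lo and 3.31% higher and 3.46% lower in SiglecF hi neutrophils.

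*Anxa11* (ENSMUSG00000021866, chr14:25842580-25887228, forward strand) encodes an annexin with a long stretch before its core, which binds S100A6 and PDCD6 and tethers RNA granules to lysosomes. It was at 222 TPM (3112 counts, interval 215 to 230.3 TPM) in WT and 436 TPM (6736 counts, interval 426 to 447 TPM) in *Cd300a-/-* SiglecF lo neutrophils. In SiglecF hi neutrophils it was at 148 TPM (3529 counts) in WT and 177 TPM (3792 counts) in *Cd300a-/-*. *Anxa11* had the largest genotype ratio of the 8 members, 0.97 (interval 0.91 to 1.03) in SiglecF lo neutrophils, and was also higher in *Cd300a-/-* SiglecF hi neutrophils, at 0.26 (interval 0.20 to 0.33), under the threshold. Its subset ratios were -0.59 (interval -0.66 to -0.52) in WT and -1.29 (interval -1.35 to -1.24) in *Cd300a-/-* mice. GENCODE annotates an antisense gene within *Anxa11*, and whether counting used the strand is not stated, so their reads cannot be told apart.

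*Anxa7* (ENSMUSG00000021814, chr14:20505328-20530201, reverse strand) encodes synexin, which also has a long stretch before its core, binds sorcin and promotes fusion of secretory granules. It was at 27.3 TPM (433 counts, interval 24.8 to 30.0 TPM) in WT and 49.9 TPM (874 counts, interval 46.7 to 53.3 TPM) in *Cd300a-/-* SiglecF lo neutrophils, and at 63.3 TPM (1717 counts) in WT and 65.8 TPM (1597 counts) in *Cd300a-/-* SiglecF hi neutrophils. WT SiglecF lo neutrophils stood below the other 3 libraries. The genotype ratio of *Anxa7* was 0.85 (interval 0.69 to 1.01) in SiglecF lo and 0.054 (interval -0.042 to 0.15) in SiglecF hi neutrophils, and its subset ratio 1.19 (interval 1.04 to 1.33) in WT and 0.39 (interval 0.28 to 0.51) in *Cd300a-/-* mice, where it turned to -0.22 relative to the median of all genes and to -0.18 with TMM scaling. *Anxa11* and *Anxa7* were both past 0.5 between the genotypes in SiglecF lo neutrophils, but in SiglecF hi neutrophils their genotype intervals were apart, and between the subsets of WT mice they went opposite ways. Per length, *Anxa11* exceeded *Anxa7* 8.15-fold (interval 7.37 to 9.01) in WT and 8.74-fold (interval 8.15 to 9.38) in *Cd300a-/-* SiglecF lo neutrophils, but 2.33-fold (interval 2.20 to 2.47) and 2.69-fold (interval 2.54 to 2.85) in SiglecF hi neutrophils.

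*Anxa3* (ENSMUSG00000029484, chr5:96941198-96993825, forward strand) encodes an annexin known from the granules of neutrophils. It was at 50.8 TPM (728 counts) in WT and 56.4 TPM (891 counts) in *Cd300a-/-* SiglecF lo neutrophils, and at 75.2 TPM (1841 counts) in WT and 69.1 TPM (1513 counts) in *Cd300a-/-* SiglecF hi neutrophils. On the TPM scale *Anxa3* was thus higher in SiglecF hi neutrophils, where the neutrophil markers were lower, but relative to the median of all genes it was lower in those of *Cd300a-/-* mice. Its subset ratio was 0.56 (interval 0.44 to 0.68) in WT and 0.29 (interval 0.17 to 0.41) in *Cd300a-/-* mice, and its genotype ratio 0.15 (interval 0.0084 to 0.29) in SiglecF lo and -0.12 (interval -0.22 to -0.025) in SiglecF hi neutrophils.

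All 6 genes of S100 and other EF-hand partners passed the limit. *S100a11*, which pairs with annexin A1, was the most abundant, at 11537, 10868, 4114 and 4085 TPM in the 4 libraries. *Anxa1* mRNA per length was 0.0716 of *S100a11* in WT and 0.134 in *Cd300a-/-* SiglecF lo neutrophils, and 0.104 and 0.111 in SiglecF hi neutrophils. *S100a6*, a partner of annexin A11, was at 2762, 3652, 742 and 758 TPM, with subset ratios of -1.89 in WT and -2.27 in *Cd300a-/-*. *Anxa11* was 0.0805 of *S100a6* in WT and 0.119 in *Cd300a-/-* SiglecF lo neutrophils, and 0.199 and 0.234 in SiglecF hi neutrophils, so the level of the annexin relative to this partner was higher in SiglecF hi neutrophils although both were lower. *Sri*, which encodes sorcin, had a genotype ratio of 0.66 (interval 0.58 to 0.74) in SiglecF lo neutrophils, where *Anxa7* was at 0.85. Between the subsets *Sri* and *Anxa7* went opposite ways on the TPM scale, at -0.50 and 1.19 in WT and at -1.17 and 0.39 in *Cd300a-/-* mice. Relative to the median of all genes they did so only in WT mice (-1.03 and 0.66), and both were below 0 in *Cd300a-/-* mice (-1.78 and -0.22). Between the genotypes 1 of the 6 was higher (*Sri*) and 2 were lower (*S100a10* and *S100a4*) in SiglecF lo neutrophils, beside 16.4% and 19.9% of all genes, with none past 0.5 in SiglecF hi neutrophils, beside 3.31% and 3.46%. In the subset comparisons 0 were higher and 3 lower in WT, and 1 higher and 3 lower in *Cd300a-/-* mice, and relative to the median of all genes 0 were higher and 5 lower in WT, and 0 higher and 4 lower in *Cd300a-/-* mice. Of all genes 51.9% and 56.6% were higher and 7.47% and 7.97% lower on the TPM scale, and 19.3% and 21.2% higher and 20.9% and 23.6% lower relative to the median, in WT and *Cd300a-/-* mice.

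**Figure D2:**
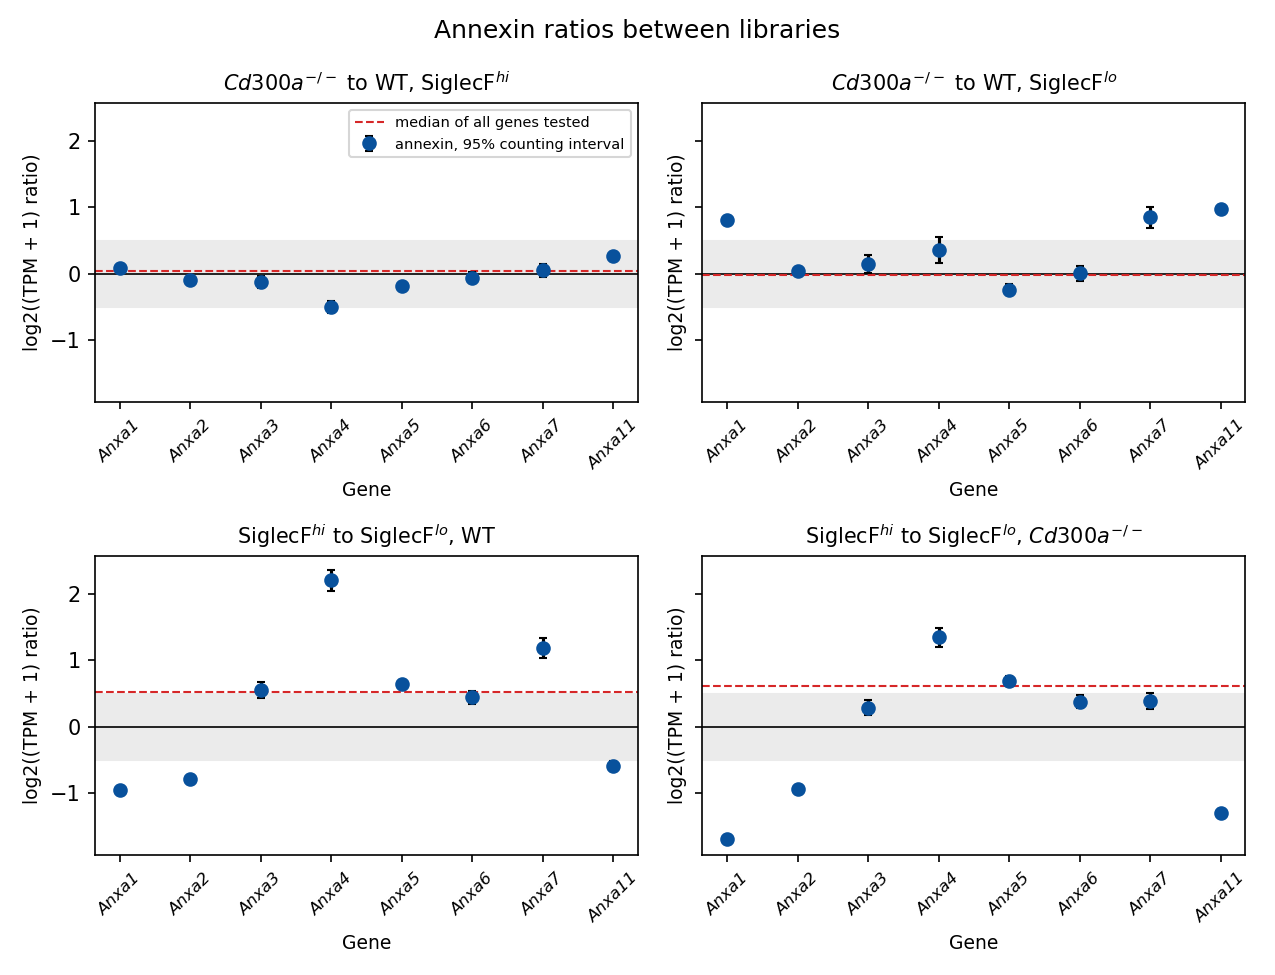
Log2((TPM + 1) ratio) of each annexin in the 4 comparisons, with 95% counting intervals as bars, the threshold of 0.5 as a grey band and the median of all 6523 genes as a dashed line. *Anxa1*, *Anxa7* and *Anxa11* lie above the band for *Cd300a-/-* against WT in SiglecF lo neutrophils, and the dashed line lies at 0.53 and 0.61 in the subset comparisons.

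Comparison of *Cd300a-/-* with WT SiglecF lo neutrophils asks what the loss of CD300a goes with in these cells. *Anxa1*, *Anxa7* and *Anxa11* were higher in *Cd300a-/-*, by 0.81, 0.85 and 0.97, and the other annexins lay between -0.24 (*Anxa5*) and 0.36 (*Anxa4*). Thus 3 of 8 annexins were past 0.5 upwards, where 16.4% of the 6523 genes were, and 0 of 8 downwards, where 19.9% were. The median of the annexins was 0.25, beside -0.016 for all genes, and summed annexin TPM was 1.28-fold that of WT. Markers moved in the same comparison. All 8 neutrophil markers were above 0 and 4 of them past 0.5, with a median of 0.51, and 5 of 5 endothelial markers that passed the limit were lower, with a median of -1.27. Of the macrophage markers 1 of 8 was higher and 1 lower, of the fibroblast markers 0 of 5 were past 0.5, and of the cardiomyocyte markers 1 of 3 was lower. The cardiomyocyte markers below the limit, *Tnni3* (-2.31), *Ttn* (-1.52) and *Myh6* (-0.73), were lower as well. *Ear2*, the only eosinophil marker that passed the limit, was lower (ratio -0.98, interval -1.17 to -0.79). The part of these markers in the annexin ratios was not tested. The lists of annexin partners had medians of -0.0044 (S100 and EF-hand), 0.27 (formyl peptide receptors), 0.17 (glucocorticoid response), 0.23 (membrane repair), -0.072 (plasminogen activation), 0.47 (phosphatidylserine exposure) and 0.15 (other phospholipid binders).

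In SiglecF hi neutrophils none of the 8 annexins passed the threshold between the genotypes. The ratios ran from -0.498 (*Anxa4*) to 0.26 (*Anxa11*), so that 0 of 8 were higher, where 3.31% of all genes were, and 0 of 8 lower, where 3.46% were. The median of the annexins was -0.077, beside 0.038 for all genes, and summed annexin TPM was 0.957-fold that of WT. With each ratio centred on that median of all genes, *Anxa4* reached -0.54 and 1 of 8 was lower, beside 4.09% of all genes, and 0 of 8 higher, beside 2.64%. Of the fibroblast markers that passed the limit 3 of 5 were lower in *Cd300a-/-*, with a median of -0.64, and 2 of 8 neutrophil markers were higher. No macrophage marker was past 0.5, 1 of 5 endothelial markers was higher and 1 lower, and 1 of 3 cardiomyocyte markers was higher. Whether they bear on *Anxa4* was not tested. For the partner lists of annexins the medians, in the order used for SiglecF lo neutrophils, were -0.048, 0.13, 0.038, -0.043, 0.26, 0.23 and 0.10.

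Between the subsets, the annexins parted into members that were lower and members that were higher in SiglecF hi neutrophils. In WT mice *Anxa1*, *Anxa2* and *Anxa11* were lower, and *Anxa3*, *Anxa4*, *Anxa5* and *Anxa7* higher. That is 4 of 8 past 0.5 upwards, where 51.9% of all genes were, and 3 of 8 downwards, where 7.47% were. The median of all genes was itself 0.53, and the 10 most abundant genes took 22.8% of TPM in WT SiglecF lo but 12.3% in WT SiglecF hi neutrophils. Relative to that median, *Anxa4* (1.68) and *Anxa7* (0.66) were higher, which is 2 of 8 beside 19.3% of all genes, and *Anxa1* (-1.48), *Anxa2* (-1.31) and *Anxa11* (-1.11) lower, which is 3 of 8 beside 20.9%. *Anxa3* (0.031) and *Anxa5* (0.12) came close to it, and *Anxa6* changed sign, to -0.082. The annexin median of 0.50 became -0.025, and summed annexin TPM in SiglecF hi was 0.743-fold that in SiglecF lo neutrophils.

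In *Cd300a-/-* mice *Anxa1*, *Anxa2* and *Anxa11* were lower in SiglecF hi neutrophils, by more than in WT mice, and *Anxa4* and *Anxa5* higher. These are 2 of 8 past 0.5 upwards, where 56.6% of all genes were, and 3 of 8 downwards, where 7.97% were. The median of all genes was 0.61, with 26.7% of TPM in the 10 most abundant genes for SiglecF lo and 11.8% for SiglecF hi neutrophils. Relative to that median *Anxa4* (0.73) was higher, 1 of 8 beside 21.2% of all genes, and *Anxa1* (-2.30), *Anxa2* (-1.54) and *Anxa11* (-1.91) lower, 3 of 8 beside 23.6%. *Anxa5* fell to 0.077, and *Anxa3*, *Anxa6* and *Anxa7* changed sign, to -0.32, -0.24 and -0.22. The annexin median of 0.33 became -0.28, and summed annexin TPM was 0.554-fold.

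*Anxa1*, *Anxa2* and *Anxa11* were thus lower and *Anxa4* higher in SiglecF hi neutrophils of both genotypes on either scale. On the TPM scale of the subset comparisons the neutrophil markers had medians of -1.85 in WT and -1.95 in *Cd300a-/-*, with 5 and 7 of 8 lower. The macrophage markers had medians of 1.38 and 1.12, with 6 and 8 of 8 higher, and the fibroblast markers 1.11 and 0.76, with 5 and 3 of 5 higher. Of 5 endothelial markers 0 were higher and 4 lower in WT, and 4 higher and 1 lower in *Cd300a-/-* mice. Relative to the median of all genes, all 8 neutrophil markers were lower in each genotype (medians -2.37 and -2.56), 6 and 4 of 8 macrophage markers higher (0.86 and 0.51) and 3 and 0 of 5 fibroblast markers higher (0.58 and 0.14). The endothelial markers then had 0 higher and 5 lower in WT, and 1 higher and 1 lower in *Cd300a-/-* mice. Of 3 cardiomyocyte markers 1 was higher in WT and 2 in *Cd300a-/-* mice on the TPM scale (medians -0.22 and 0.72), and relative to the median 2 were lower in WT and 1 higher in *Cd300a-/-* mice (-0.75 and 0.11). The eosinophil marker *Ear2* was at -0.63 in WT and 0.39 in *Cd300a-/-* mice on the TPM scale, and at -1.16 and -0.22 relative to the median. Beside these counts stand 51.9% of all genes higher and 7.47% lower in WT and 56.6% and 7.97% in *Cd300a-/-* mice on the TPM scale, and 19.3% and 20.9% in WT and 21.2% and 23.6% in *Cd300a-/-* mice relative to the median. The part of these cell markers in the annexin differences between subsets was not tested. Relative to the median of all genes, the partner lists of annexins had medians in WT and *Cd300a-/-* mice of -0.96 and -1.40 (S100 and EF-hand), -1.80 and -2.03 (formyl peptide receptors), -0.47 and -0.59 (glucocorticoid response) and 0.10 and -0.27 (membrane repair). Those of plasminogen activation were -0.49 and 0.18, of phosphatidylserine exposure -0.28 and 0.047, and of the other phospholipid binders -0.58 and -0.65.

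The genotype ratio of *Anxa1*, *Anxa7* and *Anxa11* was larger in SiglecF lo than in SiglecF hi neutrophils, by 0.73 (interval 0.67 to 0.79), 0.79 (interval 0.61 to 0.98) and 0.71 (interval 0.62 to 0.80). The largest such gap was that of *Anxa4*, 0.86 (interval 0.65 to 1.07), whose ratios had opposite signs. *Anxa5* had a gap of -0.048 (interval -0.14 to 0.046) and *Anxa6* one of 0.069 (interval -0.068 to 0.21), neither of which was detectable at this depth. The median gap over all genes was -0.048. With 1 library per group, these gaps were not tested against the spread between mice.

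Ratios between annexins within 1 library, which no scaling of libraries can move, were taken per length. *Anxa1* was 0.516 of *Anxa2* (interval 0.503 to 0.530) in WT and 0.878 (interval 0.859 to 0.897) in *Cd300a-/-* SiglecF lo neutrophils. In SiglecF hi neutrophils it was 0.459 (interval 0.447 to 0.472) in WT and 0.520 (interval 0.505 to 0.535) in *Cd300a-/-*. Of the 4 libraries, *Cd300a-/-* SiglecF lo neutrophils therefore came closest to equal amounts of *Anxa1* and *Anxa2*. *Anxa1* exceeded *Anxa5* 2.83-fold in WT and 5.87-fold in *Cd300a-/-* SiglecF lo neutrophils, but was 0.936 of it (interval 0.906 to 0.967) in WT SiglecF hi and 1.13-fold (interval 1.09 to 1.17) in *Cd300a-/-* SiglecF hi neutrophils. *Anxa4* was 0.0761, 0.116, 0.232 and 0.187 of *Anxa5* in the 4 libraries.

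The 4 remaining genes with an Anxa symbol had low counts or none. *Anxa8* had 0, 5, 16 and 66 counts in the 4 libraries, and reached 4.47 TPM in the last (interval 3.46 to 5.69). In WT SiglecF hi neutrophils *Anxa8* was at 0.970 TPM (interval 0.554 to 1.57), so its intervals in the genotypes were apart in this subset. *Anxa9* had 21, 26, 47 and 57 counts, between 1.97 and 3.50 TPM. *Anxa10* had 0 counts in every library and *Anxa13* a single count, in *Cd300a-/-* SiglecF hi neutrophils. A count of 0 allows up to 3 counts as a one-sided 95% limit, so these low annexins are not shown to be absent.

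The profile of each annexin over the 4 libraries was compared with those of all genes that passed the limit, by the Euclidean distance of log2(TPM + 1) after centring each gene on its own mean. Nearest to *Anxa1* were *Cep19* (distance 0.11) and *R3hdm4* (0.15), to *Anxa2* *Gmfg* (0.077) and *Dhrs7* (0.090), and to *Anxa11* *Fbxl5* (0.090) and *Klhdc4* (0.10). *Anxa7* was nearest to *Mob3c* (0.023) and *Tnfrsf12a* (0.036), and *Anxa4* to *Dpep1* (0.086) and *Serpina3n* (0.14). For *Anxa3* the nearest were *Tom1* (0.030) and *Cggbp1* (0.036), for *Anxa5* *Vwa5a* (0.037), and for *Anxa6* *Rps6ka3* (0.025) and *Ankrd12* (0.040). Within the family *Anxa3* and *Anxa6* were closest (0.11), *Anxa1* and *Anxa11* were each other's nearest annexin (0.41), and *Anxa4* lay farthest from any annexin (1.11, to *Anxa7*). Distances over only 4 libraries describe likeness of pattern and nothing more.

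Promoters were read because *Anxa1*, *Anxa7* and *Anxa11* were higher together in *Cd300a-/-* SiglecF lo neutrophils while *Anxa2* was not. RefSeq sequences on GRCm38.p6, a build older than that of the gene positions above, matched 6 of the 8 annexins with 8 starts, and *Anxa3* and *Anxa6* were not matched. The 250 bases before each start were searched on both strands for TTCNNNGAA (STAT), TGANTCA (AP-1) and GAGGAAG (PU.1), which 7.02%, 6.75% and 10.6% of 32841 such windows of all genes hold. The annexin windows held 1 match, of the AP-1 letters, beginning 95 bases before the start of *Anxa2*. The letters of STAT and PU.1 were in none of the 8 windows, and those of AP-1 in none of the other 7. GC content was 46.0% for *Anxa1*, 62.4% for *Anxa2*, 58.0% for *Anxa11* and 62.0% for the *Anxa7* start shown and 42.4% for its other start, beside a median of 52.4% for all windows. A match is a description of the letters and not a binding site. The windows are chr19:20390672-20390921 (reverse strand) for *Anxa1*, chr14:20479942-20480191 (reverse strand) for 1 of the 2 starts of *Anxa7*, chr14:25841905-25842154 (forward strand) for *Anxa11* and chr9:69453433-69453682 (forward strand) for *Anxa2*, shown 5′ to 3′ with the AP-1 match in capitals.
Anxa1: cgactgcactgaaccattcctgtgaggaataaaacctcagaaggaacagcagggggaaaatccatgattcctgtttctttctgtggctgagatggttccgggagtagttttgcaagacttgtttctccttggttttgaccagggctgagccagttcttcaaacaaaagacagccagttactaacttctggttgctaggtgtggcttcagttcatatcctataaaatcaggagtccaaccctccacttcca
Anxa7: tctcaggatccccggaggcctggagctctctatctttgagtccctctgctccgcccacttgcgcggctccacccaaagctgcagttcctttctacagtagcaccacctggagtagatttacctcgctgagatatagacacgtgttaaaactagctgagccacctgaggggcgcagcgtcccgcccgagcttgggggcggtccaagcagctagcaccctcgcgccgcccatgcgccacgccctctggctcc
Anxa11: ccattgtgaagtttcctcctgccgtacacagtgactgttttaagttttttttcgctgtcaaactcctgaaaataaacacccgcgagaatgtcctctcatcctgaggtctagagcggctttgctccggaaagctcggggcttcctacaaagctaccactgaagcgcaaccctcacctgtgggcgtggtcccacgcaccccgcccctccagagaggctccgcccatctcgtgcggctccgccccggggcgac
Anxa2: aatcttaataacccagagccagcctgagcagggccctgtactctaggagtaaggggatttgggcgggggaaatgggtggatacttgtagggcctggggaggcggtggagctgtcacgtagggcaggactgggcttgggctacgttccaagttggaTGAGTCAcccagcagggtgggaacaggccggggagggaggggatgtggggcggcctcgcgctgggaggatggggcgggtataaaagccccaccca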

How the data were processed

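The annexins and the partner and marker lists were chosen with earlier results of these data known. Poly(A) RNA was sequenced from 4 pools of sorted cardiac neutrophils, 1 library per group, prepared with the NEBNext Ultra II kit and read as pairs on a NextSeq. For each gene the authors deposited a whole-number count that was not normalized; reads or pairs as its unit is not stated. The authors deposited TPM, calculated in CLC Genomics Workbench, which divides by gene length and has a fixed sum per library. The submitters' processing notes name GRCm39, and the aligner settings and annotation release are not given in the sources used here. RPKM and scaled CPM columns were not used.

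Log2((TPM + 1) ratio) was computed for *Cd300a-/-* against WT within each subset and for the subsets (SiglecF hi against SiglecF lo) in each genotype, for genes with a mean TPM over 10, and genes past 0.5 were counted. No test compared conditions. The 95% counting interval of a ratio was taken from the Poisson variance of its counts by the delta method, and that of a level the exact Poisson interval of its count; 0 counts were read as up to 3 (one-sided limit). Alternatives were a pseudocount of 0.1, a mean TPM over 1, a TPM over 10 in both libraries compared, CPM scaled by TMM (edgeR 4.0.16, run under R 4.3.3), centring on the median of all genes, and a log2 threshold of 1. Genes named were, by rule, all annexins, per list its most abundant gene and up to 4 with the largest ratio past 0.5 in a comparison, the 2 nearest profiles of each annexin (1 of them is not reported here), *Cd300a* and the sorting markers; *Fpr3*, *Plg*, *Trac* and the eosinophil markers other than *Ear2* were named after their values were seen. The calculation was tested on simulated counts. Python 3.11.15, numpy 2.4.6, pandas 2.3.3, scipy 1.17.1 and matplotlib 3.10.9 were used. Protein sequences were not used.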

Additional observations from a re-analysis of the deposited data

Results flagged for a closer look

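The genotype ratios of 3 annexins had opposite signs in the 2 subsets, each with a counting interval clear of 0. For *Anxa4* the ratio of *Cd300a-/-* to WT was 0.86 larger in SiglecF lo (0.36) than in SiglecF hi neutrophils (-0.498), and the signs stayed opposite with TMM scaling (0.39 and -0.52) and with centring (0.38 and -0.54). For *Anxa3* the gap was 0.27 (0.15 against -0.12), and for *Anxa2* it was 0.14 (0.048 against -0.096), with opposite signs under both of these scalings too. The counting intervals of these 2 ratios in SiglecF lo neutrophils began close to 0, at 0.0084 for *Anxa3* and 0.015 for *Anxa2*. These differences were not tested, since each rests on 1 library per group. On the TPM scale all of them come from ratios under the threshold in both subsets, and only *Anxa4* in SiglecF hi neutrophils passed it with TMM scaling or centring.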

How the results depend on the processing

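The 8 annexins exceed 10 TPM in every library, so a mean TPM over 1 or a TPM over 10 in both libraries leaves their values as they are by construction and says nothing of their stability. With a pseudocount of 0.1 all 32 single ratios moved by less than their counting interval, though *Anxa4* in *Cd300a-/-* against WT SiglecF hi neutrophils passed 0.5 (-0.50), so that 1 annexin in place of 0 was counted, as also with TMM scaling (1) and with centring (1). A log2 threshold of 1 lowered the number of annexins past it from 3 to 0 between the genotypes in SiglecF lo neutrophils, from 7 to 2 between the subsets in WT mice and from 5 to 3 in *Cd300a-/-* mice. The annexin median of SiglecF hi against SiglecF lo in WT mice turned from 0.50 to -0.033 with TMM scaling and to -0.025 with centring, and in *Cd300a-/-* mice from 0.33 to -0.24 and -0.28. By construction centring takes off the median of all genes, and the cause of the TMM shift was not tested. TMM scaling moved 16 of 32 single ratios by more than their interval and centring 17 of 32, and no ratio past 0.5 changed sign. *Anxa3* and *Anxa5* in WT, and *Anxa5* in *Cd300a-/-* mice, fell under 0.5 between the subsets with either. No paired analysis was possible because each group has 1 library. Depth limits *Anxa4* and *Anxa7* most, at 330 and 433 counts in WT SiglecF lo neutrophils.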
